A study of Homo sapiens with 8 samples.

Results

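The aminoacyl-tRNA synthetases were examined as a family of 36 genes among the 63677 in the count tables, 20 that encode cytosolic enzymes and 16 that encode mitochondrial ones. The members were chosen by gene symbol from a fixed list, under the older symbols that the tables use (MARS is now named MARS1, AARS is AARS1, and so on). The family itself was proposed with earlier results of these counts known. VARS and VARS2, whose symbols have 7 and 4 Ensembl identifiers, were taken by the identifier with the highest summed count, the others holding 0 counts. Such a selection on known results makes the counts of called members a description.

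The study sequenced RNA of JJN3 and H929, human cell lines of multiple myeloma (MM), a plasma cell cancer, to find genes sensitive to the loss of CDK7 activity. Cells received 50 nM THZ1, which binds the transcriptional kinase CDK7 covalently, or only the vehicle DMSO, and were harvested at 24 h. Each line and treatment had 2 libraries, 8 in all, with 17476443 to 19194371 counts on genes per library. Each group is labelled as 1 established line, grown in the same medium. The labels do not say whether the libraries of a group came from separate cultures, so the p-values measure only the spread between these libraries. Levels are given as CPM, the count scaled to the total of the library, and fold changes come from a model fitted over all genes with TMM scaling. Both are relative to the other genes, so a change in the total transcript of a cell cannot be seen in them. Because RNA came from whole cultures, less transcript per cell and fewer cells holding it cannot be told apart.

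A synthetase joins 1 amino acid to its tRNA, the step that gives the ribosome its charged substrates. The nuclear genome holds separate genes for most of the cytosolic and mitochondrial enzymes, while GARS and KARS each serve both compartments and EPRS joins both glutamate and proline. In the cytosol 8 of the enzymes (DARS, EPRS, IARS, KARS, LARS, MARS, QARS and RARS) sit with scaffold proteins in the multisynthetase complex, and the rest work outside it. Plasma cells secrete large amounts of immunoglobulin, and several cytosolic synthetase genes are known targets of ATF4, the transcription factor of the amino acid response. The plasma cell label held for JJN3, where 9 of 9 plasma cell markers were over 1 CPM in every library, as were 8 of 9 in the H929 DMSO and 9 of 9 in the H929 THZ1 libraries. Summed over 3 genes each, T cell, myeloid and erythroid markers stayed at 4.41 CPM or less in JJN3. Under the H929 labels the plasma cell sum was 3366 and 3632 CPM with DMSO and 12200 and 12230 CPM with THZ1. Of the 3 T cell markers there, CD3E had 15 and 26 counts with DMSO but 640 and 650 with THZ1. CD3D had 1 and 4 counts and then 0 and 0, and CD2 had 2 and 2 and then 6 and 6.

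The libraries labelled H929 were set apart by their own transcripts. Lambda genes took 99.99% and 97.96% of all light chain V gene counts in the DMSO libraries but 0.212% and 0.211% in the THZ1 libraries, where kappa genes held 31511 and 29325 counts. JJN3 had 0.257% to 0.391% lambda in all 4 libraries. Across genes, the log2 CPM values of the H929 DMSO and THZ1 libraries had correlations of 0.784 to 0.810, close to the 0.804 to 0.815 between JJN3 DMSO and H929 DMSO, while JJN3 DMSO and THZ1 correlated at 0.966 to 0.973. The second H929 DMSO library held 597 kappa counts against 3 in the first, and 174 counts of the plasma cell marker SLAMF7 against 2. Treatment and the source of the cells cannot be told apart under the H929 labels, so JJN3 is described first and the H929 values carry their labels only.

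The sequences printed here are the promoter matches whose share differed most between the classes, together with those that HARS and HARS2 share. Promoter windows of RefSeq (GRCh38.p14, 250 bases before to 50 after a start) were matched for 30 of the 36 genes and searched on both strands for TGATGNAA, the core of the C/EBP-ATF element that ATF4 binds. It lay in 7 of 16 cytosolic genes with a window (43.8%), in 1 of 14 mitochondrial genes (7.14%) and in 4.46% of all 27305 genes. The matches are shown 5′ to 3′ along the gene's own strand, with the element or its reverse complement in capitals, and were placed on GRCh37, the build of the counts, by exact match.
MARS: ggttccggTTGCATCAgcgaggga
AARS: tctcgcagTTGCATCAgccaagtt
CARS: ggcggcggTTGCATCAgattctag
IARS: tcagcgcgTTGCATCAcctccgtg
TARS: cctttcgaTTGCATCAgctggtcc
NARS: acgctctcTGATGCAAcgccggaa
GARS: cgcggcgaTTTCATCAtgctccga
YARS2: cacactgcTGATGGAAaaattaag

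The first 6 carry the same 8 letters, 5 of them reversed and NARS forward. They lie at chr12:57881839-57881862 (MARS, plus strand), chr16:70323581-70323604 (AARS, minus), chr11:3078640-3078663 (CARS, minus), chr9:95055977-95056000 (IARS, minus), chr5:33441065-33441088 (TARS, plus) and chr18:55289039-55289062 (NARS, minus), and GARS and YARS2 at chr7:30634453-30634476 (plus) and chr12:32909013-32909036 (minus). Counted from the start of transcription, the element began at -4 in MARS, -2 in CARS, -13 in IARS, 14 in NARS and, from the start of the second of the 2 windows of TARS, at 2 in that gene, at -33 in GARS, and further out at -187 in AARS and -197 in YARS2. The other motifs separated the classes less. CCGGAAGT (the ETS site) was in 5 of 16 cytosolic and 3 of 14 mitochondrial genes against 4.95% of all genes, the NRF1 site (GCGCA, any base, then GCGC) in 3 and 3 against 6.98%, and CACGTG (the E-box) in 1 and 3 against 8.77%. A match is a run of letters, and binding was not measured.

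HARS and HARS2, the cytosolic and mitochondrial histidine enzymes, start head to head on chromosome 5 and hold the same 2 ETS matches between them, shown along HARS2 with the site in capitals.
HARS2 left site: caaggatgACTTCCGGctatcgag
HARS2 right site: ggctcctcCCGGAAGTgccgaagc

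They lie at chr5:140070949-140070972 and chr5:140071024-140071047 (GRCh37, plus strand). The annotated HARS gene (140052620 to 140071122, minus strand) overlaps the first bases of HARS2 (140071015 to 140078890).

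In JJN3, synthetase transcripts took a smaller share of the library with THZ1, in both classes. Over all 36 genes they summed to 8442 and 8837 CPM in the DMSO libraries and to 5414 and 5408 CPM in the THZ1 libraries, or 0.626 of the DMSO mean. The cytosolic sum was 7571 and 7929 CPM with DMSO against 4802 and 4736 CPM with THZ1. The mitochondrial sum was 870 and 908 CPM against 611 and 673 CPM. Neither class overlapped between the treatments. The THZ1 mean was 0.615 of the DMSO mean for the cytosolic sum and 0.722 for the mitochondrial sum, and the ratio of the sums went from 8.70 and 8.73 with DMSO to 7.86 and 7.04 with THZ1. Without GARS and IARS2, the genes with the most counts in each class, the ratio was 9.45 and 9.33 with DMSO and 9.58 and 8.45 with THZ1, which overlapped.

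**Figure D1:**
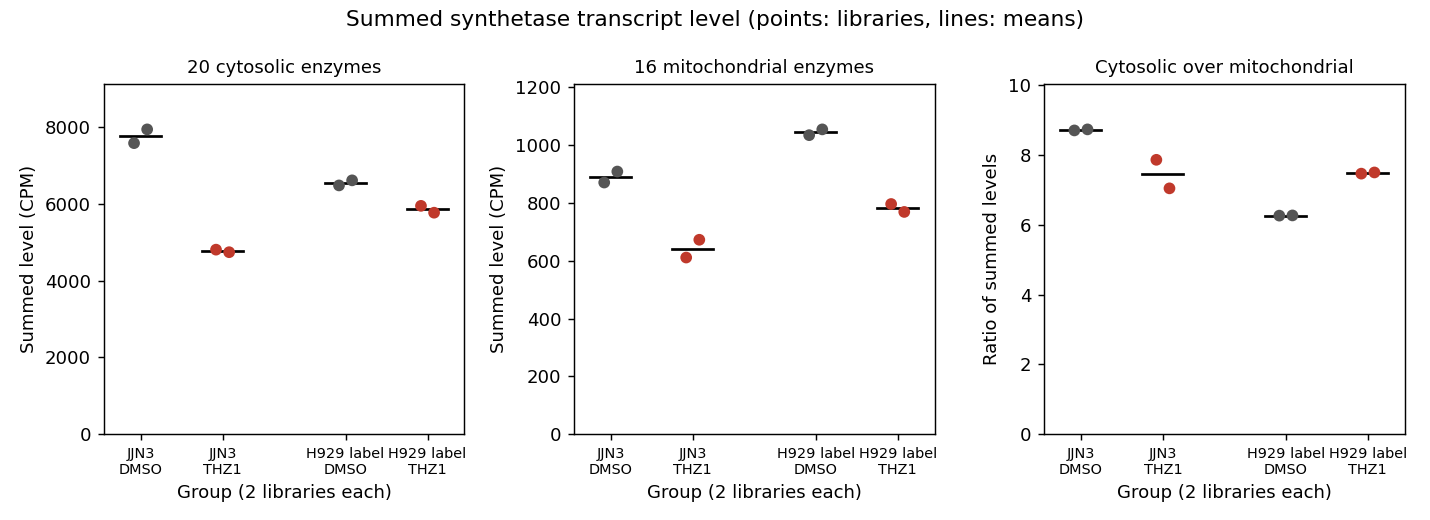
Summed level of the 20 cytosolic and the 16 mitochondrial synthetase genes in CPM, and their ratio, in each of the 8 libraries (points) with group means (lines, n = 2). Both JJN3 sums are lower with THZ1 (5414 and 5408 CPM for all 36 genes against 8442 and 8837 CPM), while under the H929 labels the ratio is higher with THZ1.

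Single genes were called lower or higher at an adjusted p under 0.05 and a log2 fold change past 0.5 either way. The test was edgeR's quasi-likelihood test over 13984 genes. The study used these limits to pick super-enhancer genes sensitive to THZ1, and they were applied here to all genes in both directions. All 36 members passed the filter on low counts. In JJN3, 22 were lower and 0 higher, where 21.4% of all genes tested were lower and 20.4% higher. At an unadjusted p under 0.05 the count of higher members was also 0, and DESeq2 gave 22 lower and 0 higher. These counts are not independent evidence of a direction, given how the family was chosen. Both THZ1 libraries were under both DMSO libraries in CPM for 34 of the 36 members, against 46.2% of all genes.

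The classes had nearly equal medians in JJN3. Of the 20 cytosolic genes 13 were lower (21.4% of all genes tested were), with a median log2 fold change of -0.59. All 20 were negative at an adjusted p under 0.05 whatever the fold (30.5% of all genes tested were), from -1.72 (MARS) to -0.21 (EPRS). EPRS was over that p with DESeq2 size factors (0.0697), a filter of 1 CPM (0.0653) and without the first or second DMSO library (0.23 and 0.257), all with edgeR. QARS was over it without either (0.0577 and 0.144), and SARS and VARS without the second (0.0546 and 0.0964). Of the 16 mitochondrial genes 9 were lower, with the same median of -0.59, and their range ran from -1.86 (SARS2, with few counts) or -1.26 (AARS2) to 0.13 (IARS2). The median of all genes tested was -0.0004 with TMM scaling, which centres most genes near 0, and -0.10 with total counts.

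**Figure D2:**
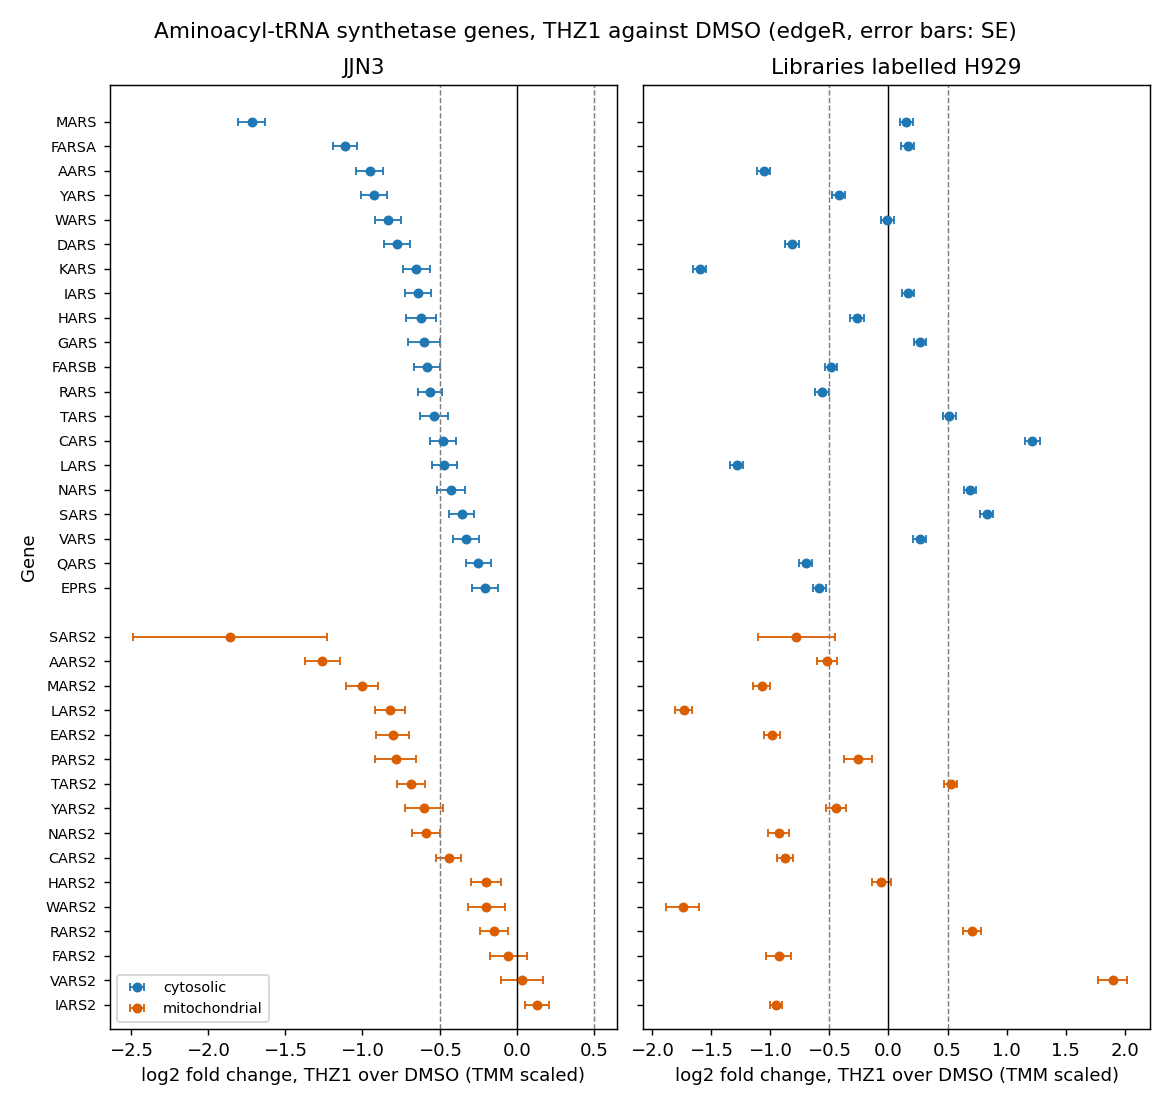
The log2 fold change of each synthetase gene (THZ1 over DMSO, TMM scaled, edgeR), cytosolic above mitochondrial, in JJN3 (left) and under the H929 labels (right). Bars are standard errors derived from the edgeR test (2 libraries per group). Dashed lines mark a log2 fold change of 0.5 either way. In JJN3 all 20 cytosolic genes lie left of 0, and the 16 mitochondrial genes run from -1.86 to 0.13.

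MARS (ENSG00000166986, chr12:57869228-57911352, plus strand), the methionine enzyme of the complex, fell furthest among the cytosolic genes. Its level was 175 and 199 CPM with DMSO and 51.4 and 54.6 CPM with THZ1 in JJN3, with no overlap. The log2 fold change was -1.72 (SE 0.0876, adjusted p = 1.12e-08, edgeR). Of the exon bases annotated to MARS, 12.4% are shared with other genes, among them DDIT3 on the opposite strand, which was named after its values were seen and whose counts were 86 and 96 with DMSO but 46 and 56 with THZ1, when MARS had 3361 and 3795 and then 898 and 1009.

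FARSA and FARSB encode the catalytic and the other subunit of the phenylalanine enzyme. FARSA was at 194 and 189 CPM with DMSO and at 79.5 and 85.3 CPM with THZ1 (log2 fold change -1.11, SE 0.080). FARSB was at 350 and 380 CPM and then 229 and 225 CPM (-0.58, SE 0.0845). Both subunit genes fell, with both THZ1 libraries under both DMSO libraries, as for 46.2% of all genes.

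AARS, the alanine enzyme, went from 494 and 526 CPM to 239 and 251 CPM, and YARS, the tyrosine enzyme, from 456 and 472 CPM to 219 and 236 CPM. Their log2 fold changes were -0.95 and -0.92, with adjusted p-values of 4.25e-07 and 4.93e-07 from edgeR. By the fit their THZ1 levels were 0.516 and 0.527 of those with DMSO. WARS, the tryptophan enzyme, was at 177 and 188 CPM with DMSO and at 99.1 and 91.3 CPM with THZ1 (-0.84, SE 0.0853).

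Of the 8 enzymes of the multisynthetase complex, 5 were lower in JJN3 with a median of -0.60. Of the 12 other cytosolic genes 8 were lower with a median of -0.59, where 21.4% of all genes tested were lower. Within the complex, DARS (aspartate), KARS (lysine), IARS (isoleucine) and RARS (arginine) had log2 fold changes of -0.78, -0.65, -0.64 and -0.56. The remaining 3 did not pass the fold threshold. LARS (leucine), QARS (glutamine) and EPRS had -0.47, -0.25 and -0.21. All 3 had both THZ1 libraries under both DMSO libraries, as 46.2% of all genes had. EPRS, at 442 and 451 CPM with DMSO and 360 and 361 CPM with THZ1, had the smallest difference of the cytosolic genes (SE 0.0836, adjusted p = 0.0456, edgeR).

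Outside the complex, HARS (histidine), GARS (glycine) and TARS (threonine) also fell, with log2 fold changes of -0.62, -0.60 and -0.54. GARS held the most counts of any synthetase gene in JJN3, at 1104 and 1179 CPM with DMSO and 739 and 661 CPM with THZ1. TARS was at 887 and 901 CPM and then 580 and 567 CPM. For all 3, both THZ1 libraries were under both DMSO libraries, as for 46.2% of all genes. GARS and TARS both had -0.49, short of the fold threshold, when the second THZ1 library was left out. CARS (cysteine), NARS (asparagine), SARS (serine) and VARS (valine) did not reach the fold threshold, with values of -0.48, -0.43, -0.36 and -0.33 at adjusted p-values of 0.00335 or less from edgeR.

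Among the mitochondrial genes, AARS2, MARS2, LARS2, EARS2, PARS2, TARS2, YARS2 and NARS2, named like their cytosolic counterparts for the amino acid they charge, were lower with 161 or more counts in every JJN3 library. AARS2 was at 33.2 and 35.9 CPM with DMSO and at 12.8 and 14.1 CPM with THZ1 (log2 fold change -1.26, SE 0.114, adjusted p = 5.29e-07, edgeR). MARS2 went from 42.9 and 41.7 CPM to 19.0 and 20.3 CPM (0.499 of its DMSO level by the fit). With MARS, FARSA and SARS2 these made 5 members lower by more than 1 on the log2 scale, as 7.17% of all genes were. LARS2, at 47.7 ± 3.15 CPM (SD, n = 2) and then 25.1 ± 0.186 CPM, had -0.82, and EARS2, the glutamate enzyme, -0.80. PARS2 (proline), TARS2, YARS2 and NARS2 had -0.79, -0.68, -0.60 and -0.59, with YARS2 at -0.47 when the second DMSO library was left out.

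SARS2, the ninth mitochondrial gene called lower, rests on few counts. DMSO libraries held 15 and 19, THZ1 libraries 7 and 1, the last being under the floor of 3 counts (0.156 to 0.172 CPM per library, counting error only). The log2 fold change of -1.86 had an SE of 0.629 and an adjusted p of 0.0198 with edgeR, and DESeq2 gave 0.177. Without the second THZ1 library the adjusted p was 0.214 with edgeR, without either DMSO library 0.0574 and 0.136. Of its annotated exon bases 48.2% are shared with an overlapping gene.

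The 7 mitochondrial genes not called in JJN3 were headed by IARS2, the isoleucine enzyme. IARS2 was at 186 and 185 CPM with DMSO and at 187 and 190 CPM with THZ1 (log2 fold change 0.13, SE 0.0781, adjusted p = 0.164, edgeR), the only member with both THZ1 libraries over both DMSO libraries, as 33.7% of all genes had. VARS2 was at 19.6 and 19.7 CPM and then 15.9 and 21.7 CPM (0.04, SE 0.136), and its groups overlapped. FARS2 (phenylalanine), RARS2, WARS2 and HARS2 had -0.06, -0.15, -0.20 and -0.20 with adjusted p-values of 0.714, 0.180, 0.164 and 0.0828 from edgeR. CARS2, at 85.2 and 88.7 CPM and then 59.5 and 59.6 CPM, had -0.44 with no overlap and an adjusted p of 0.000351, and missed the fold threshold.

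**Figure D3:**
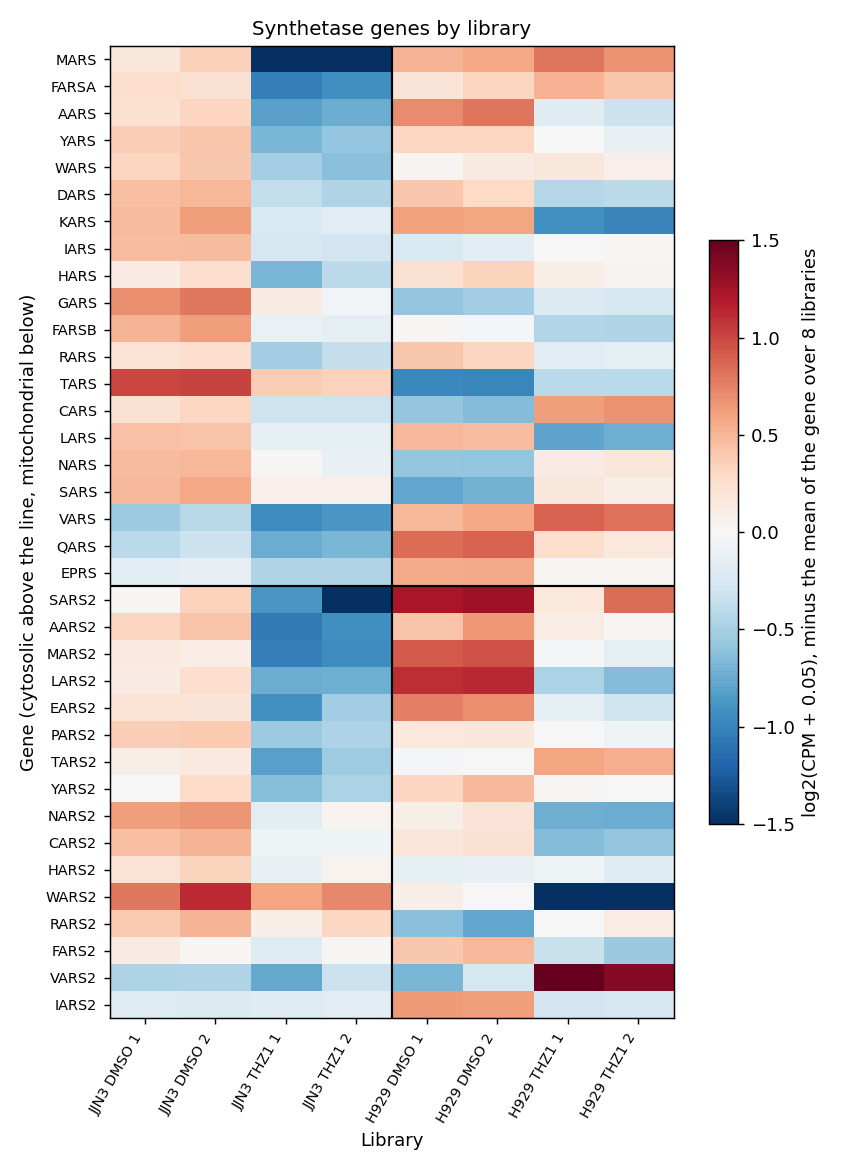
Level of each synthetase gene in each library, as log2(CPM + 0.05) minus the mean of the gene over the 8 libraries, with colours limited to 1.5 either way. The JJN3 THZ1 columns are below the JJN3 DMSO columns for 34 of 36 genes, while the columns labelled H929 differ from each other in both directions.

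Of 16 pairs of genes for the same amino acid, 14 had both values negative in JJN3. By the calls, 4 had both genes lower, 5 only the cytosolic gene, 5 only the mitochondrial gene and 2 neither. Of all genes tested in JJN3, 21.4% were lower. EPRS stands in both the glutamate and the proline pair. The phenylalanine pair differed by 1.06 on the log2 scale (FARS2 minus FARSA). FARSB, the other subunit gene, had -0.58 and was not paired. The isoleucine pair differed by 0.77 (IARS2 minus IARS), the methionine pair by 0.71 and the tryptophan pair by 0.64. In all of these pairs the cytosolic gene was the more negative. For glutamate and proline, both charged by EPRS in the cytosol, EARS2 and PARS2 were the more negative by 0.60 and 0.58. The HARS and HARS2 genes, with their shared promoter, had -0.62 and -0.20. These differences were not tested between genes.

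**Figure D4:**
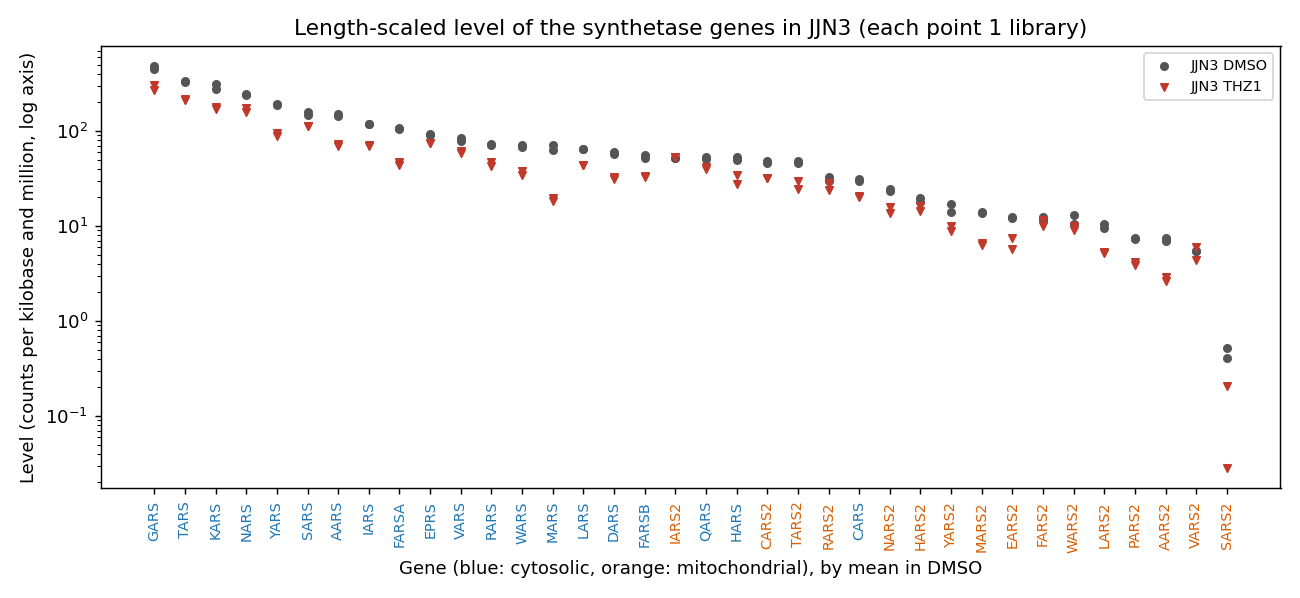
Level of each synthetase gene in CPM divided by the length of its main transcript in kilobases (log axis) in the 2 JJN3 DMSO (circles) and 2 JJN3 THZ1 libraries (triangles), ordered by the mean with DMSO. GARS is the highest at 468 with DMSO, IARS2 the highest of the mitochondrial genes at 52.5, and SARS2 the lowest.

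Levels can be compared between genes only per length, here as CPM divided by the kilobases of the MANE Select transcript (RPKM). With DMSO in JJN3 the order began with GARS (468 ± 21.5 RPKM, SD, n = 2), TARS (334 ± 3.55), KARS (295 ± 21.0), NARS (241 ± 2.74) and YARS (190 ± 4.66), each step larger than the SDs. The first 17 places were cytosolic. IARS2 took the eighteenth at 52.5 ± 0.158 RPKM and lay within the spread of its neighbours QARS (52.1 ± 2.10) and HARS (51.2 ± 3.002). CARS was the lowest cytosolic gene at 30.7 ± 1.38 RPKM, below IARS2, CARS2, TARS2 and, within its spread, RARS2 (31.2 ± 1.83). With THZ1, IARS2 stood at 53.5 ± 0.668 RPKM and rank 11, above 10 cytosolic genes in place of 3, and MARS had become the lowest cytosolic gene.

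The libraries labelled H929 gave another picture, with genes of the family called in both directions. There 17 members were lower and 7 higher, where 32.6% of 14863 genes tested were lower and 33.1% higher. By adjusted p alone 22 were lower and 12 higher, against 41.1% and 41.2% of all genes, and past 1 on the log2 scale 6 and 2, against 21.2% and 23.5%. The cytosolic genes were split, with 7 lower, 4 higher and a median of -0.14, while 10 of 16 mitochondrial genes were lower and 3 higher, with a median of -0.83. The median of all genes tested was 0.01. In summed level the cytosolic genes went from 6472 and 6604 CPM to 5941 and 5763 CPM. The mitochondrial genes went from 1034 and 1054 CPM to 796 and 769 CPM. The ratio was thus higher with THZ1 (7.463 and 7.497) than with DMSO (6.26 and 6.27), the opposite order to JJN3. Without GARS and IARS2 the ratios were closer, at 8.57 and 8.46 with DMSO and 8.60 and 8.81 with THZ1, while those of JJN3 overlapped.

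Within the cytosolic class the complex and the other genes had medians of opposite sign under these labels, with ranges that overlapped (-1.60 to 0.16 and -1.05 to 1.22), and the difference was not tested. Of the 8 complex genes 6 were lower (32.6% of all genes were) and 0 higher, with a median of -0.64. At an unadjusted p under 0.05 with edgeR 2 of them, IARS and MARS, were higher. Both also passed the adjusted p (0.00384 and 0.01, edgeR) and missed only the fold threshold, at 0.16 and 0.15. DESeq2 also called 6 lower and 0 higher. Of the 12 other genes 1 was lower and 4 higher (33.3%, near the 33.1% of all genes), with a median of 0.21. KARS, at 608 and 605 CPM with DMSO and 214 and 201 CPM with THZ1, had a log2 fold change of -1.60 (SE 0.0538), and LARS, at 319 and 314 CPM and then 131 and 137 CPM, had -1.29. AARS, DARS, QARS, EPRS and RARS had -1.05, -0.82, -0.70, -0.58 and -0.56. The 4 that were higher were CARS (46.7 and 44.5 CPM, then 108 and 111 CPM, log2 fold change 1.22), SARS (0.83), NARS (0.69) and TARS (0.52).

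The mitochondrial genes under the H929 labels held both extremes of the family. WARS2 was at 17.8 and 16.7 CPM with DMSO and 5.64 and 5.03 CPM with THZ1, and LARS2 at 91.0 ± 1.49 CPM (SD, n = 2) and then 28.3 ± 2.38 CPM, with log2 fold changes of -1.74 and -1.73. VARS2 was at 16.8 and 22.4 CPM and then 81.4 and 69.6 CPM, with a log2 fold change of 1.90 (SE 0.125). RARS2 and TARS2 were also higher, at 0.71 and 0.53. The other 8 called lower lay between -1.07 (MARS2) and -0.52 (AARS2). AARS2 had -0.40 and -0.47, short of the threshold, without the second DMSO or the second THZ1 library, and SARS2, with 16 to 35 counts, kept its call in 1 of the 4 fits that left out a library, the one without the second THZ1 library.

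**Figure D5:**
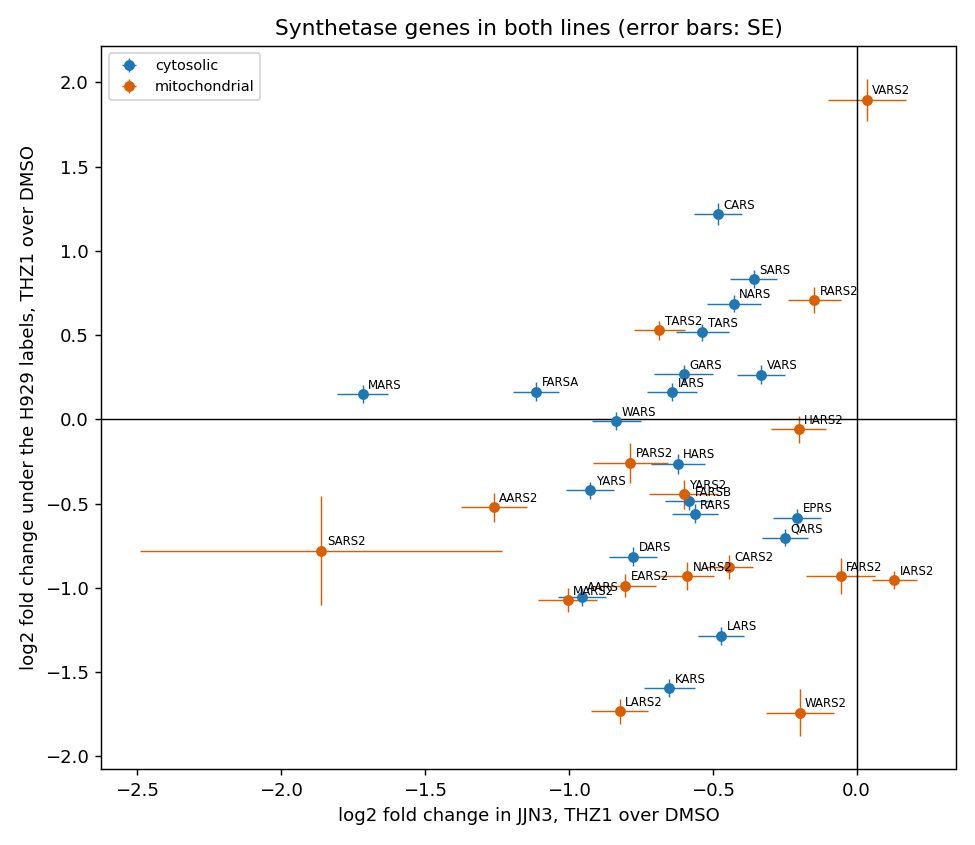
The log2 fold change (THZ1 over DMSO) of each synthetase gene in JJN3 (x axis) and under the H929 labels (y axis). Bars are standard errors derived from the edgeR test (2 libraries per group). Members range from -1.86 to 0.13 in JJN3 and from -1.74 to 1.90 under the H929 labels.

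Set side by side, 10 members were lower in both comparisons, as were 10.1% of the 12787 genes tested in both (AARS, DARS, KARS and RARS in the cytosol, and AARS2, EARS2, LARS2, MARS2, NARS2 and SARS2 in mitochondria). TARS and TARS2, the threonine pair, fell in JJN3 but were higher under those labels, as were 4.37% of all genes. A further 10 were lower in JJN3 alone by the threshold, 7 were lower under the H929 labels alone and 5 were higher there alone. HARS2 and VARS were called in neither. Of all genes tested, 21.4% were lower in JJN3, and 32.6% were lower and 33.1% higher under the H929 labels. The shares of all genes called in 1 comparison alone were not counted. The difference in response (JJN3 minus H929 labels), tested as an interaction over 16122 genes, passed for 22 members, 16 more negative and 6 more positive in JJN3, against 28.3%, 25.6% and, either way, 53.8% of all genes. For 10 members it was beyond 1 (37.9% of all genes). MARS had the most negative difference at -1.87 (SE 0.105, adjusted p = 1.92e-13, edgeR), and WARS2 the most positive at 1.54 (SE 0.182, adjusted p = 9.14e-08, edgeR). All of these differences hold the source of the H929 libraries as well as treatment.

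The 7 cytosolic genes with TGATGNAA in their window, printed above, had a median of -0.60 in JJN3, and 5 of them were lower. The 9 cytosolic genes with a window and without it had -0.58, with 6 lower, where 21.4% of all genes tested were lower. The medians were thus close in JJN3. Under the H929 labels 6 of the 7 had positive values (median 0.27, with AARS the exception) against 2 of the 9 (median -0.49). By the calls there, 3 of the 7 were higher and 1 lower, against 1 higher and 4 lower of the 9. Of all genes tested 33.1% were higher and 32.6% lower. Treatment and the source of the cells cannot be told apart in these values. The lists are small, were described after earlier results were known and were not tested.

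Other genes of the same pathways were counted from lists drawn up by function. Of the scaffold proteins of the complex, AIMP2 and EEF1E1 were lower in JJN3 and AIMP1 was not called. AIMP2 counts were 1454 and 1377 under DMSO and 548 and 655 under THZ1 (-1.04 on the log2 scale), EEF1E1 had -0.95, and AIMP1, with 2951 and 2977 and then 2658 and 2559 counts, had 0.01. Of 9 partner enzymes of tRNA charging, 4 were lower and 0 higher, against 21.4% and 20.4% of all genes (DESeq2 4 and 0, and 1 higher at an unadjusted p under 0.05 with edgeR). GATC (-0.83) and QRSL1 (-0.79) encode subunits of the mitochondrial amidotransferase that makes glutaminyl-tRNA. The listed gene of its remaining subunit had -0.38 and was not called. MTFMT (-0.71) formylates the mitochondrial initiator, and TARSL2 (-0.68) is a further threonine enzyme.

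The list named for elongation factors had 7 genes tested in JJN3 (EEF1A1, EEF1B2, EEF1D, TUFM, TSFM, GFM1 and GFM2). With edgeR and with DESeq2, 0 of them were lower and 0 higher, against 21.4% and 20.4% of all genes. At an unadjusted p under 0.05 with edgeR, 1 was lower and 2 were higher. On the log2 scale the 7 genes ran from -0.23 to 0.30, with 0.16 in the middle. Under the H929 labels 4 of the 7 were lower and 0 higher, against 32.6% and 33.1% of all genes (DESeq2 4 and 0, and 1 higher at an unadjusted p under 0.05 with edgeR).

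ATF4 transcripts also fell in JJN3, with 5137 and 5331 counts in the DMSO libraries and 2582 and 2238 in the THZ1 libraries (log2 fold change -0.92, SE 0.102). Of 17 genes tested from the ATF4 pathway 9 were lower and 2 higher (21.4% and 20.4% of all genes), with a median of -0.64. PSAT1 (-1.62) and PSPH (-1.35), both of serine synthesis, were lower, as were the pseudokinase TRIB3 (-1.02) and the amino acid transporter SLC7A5 (-0.97). Under the H929 labels 2 of the 17 were lower and 4 higher, both below the shares of all genes (32.6% and 33.1%), and ATF4 itself had -0.33. The part of ATF4 in the synthetase levels was not tested.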

How the data were processed

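Per the labels, total RNA was read single-end in 8 libraries. The authors aligned reads to hg19 with STAR 2.5.2a, kept uniquely mapping reads and counted them per Ensembl gene with featureCounts, with a strand setting not given in the sources used here. They deposited raw counts, 1 table per line. They also deposited tables of their own DESeq2 1.12.4 comparison, with a mean normalized signal, a log2 fold change, its standard error, a test score and p-values, of which only the gene symbols were used here.

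Counts were tested with edgeR 4.0.16 in R 4.3.3 (TMM, filterByExpr, robust quasi-likelihood test, Benjamini-Hochberg adjustment over all genes) within each line, and as an interaction over all 8 libraries. The standard errors (SE) given with edgeR were the absolute log2 fold change divided by the square root of the F value of the test. edgeR's biological variation coefficient was 0.074 (JJN3) and 0.0432 (H929 labels). Transcript lengths were those of GENCODE for GRCh37. DESeq2 1.42.0, other scalings and filters, the replicate block and leaving out each library were alternatives. The members, the lists and the genes named (all 36 members, and from each pathway list its defining gene and the largest called changes in JJN3 at an average log2 CPM of 3 or more) were chosen with earlier results of these data known. Replicate numbers did not pair libraries. Proteins were not analysed here. A further planned gene list is not reported here.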

Additional observations from a re-analysis of the deposited data

Results flagged for a closer look

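The response to THZ1 differed between JJN3 and the H929 labels for 22 synthetase genes (61.1% of the 36, against 53.8% of all genes) at an adjusted p under 0.05 and a log2 difference past 0.5 (edgeR interaction). Given as JJN3 minus H929 labels on the log2 scale, it was more negative in JJN3 for the cytosolic MARS (-1.87), CARS (-1.71), FARSA (-1.29), SARS (-1.20), NARS (-1.12), TARS (-1.06), GARS (-0.88), WARS (-0.83), IARS (-0.81), VARS (-0.61) and YARS (-0.51). The same held for the mitochondrial VARS2 (-1.87), TARS2 (-1.22), RARS2 (-0.86), AARS2 (-0.75) and PARS2 (-0.54). It was more positive in JJN3 for the cytosolic KARS (0.94) and LARS (0.81) and for the mitochondrial WARS2 (1.54), IARS2 (1.07), LARS2 (0.90) and FARS2 (0.87). Of the 12 cytosolic genes outside the multisynthetase complex, 9 were more negative in JJN3, where 28.3% of all genes were. Of the 8 inside it 2 were more negative and 2 more positive, near the shares of all genes (28.3% and 25.6%). Treatment and cell source cannot be told apart in these values, since the libraries labelled H929 DMSO and THZ1 carry different light chains.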

How the results depend on the processing

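The 22 lower members of JJN3 numbered 19 to 25 when 1 library was left out (19 without the second THZ1 library, where GARS and TARS both had -0.49) and 21 to 26 under other tools, scalings and filters. The replicate block took EPRS in JJN3 over an adjusted p of 0.05 (0.0688, edgeR) and left 22 lower in JJN3, 17 lower and 7 higher under the H929 labels and 22 differences between the lines, and the replicate numbers did not pair the libraries (correlation of deviations 0.009 and -0.020). Beyond a log2 fold change of 1 the counts were 5 lower in JJN3, 6 lower and 2 higher under the H929 labels, and 10 differences between the lines. With adjusted p alone 12 were higher under the H929 labels. Scaling by total counts moved the median of all genes in JJN3 to -0.10 and the cytosolic median to -0.70, with 3651 genes lower and 2329 higher in place of 2987 and 2858. Leaving out 1 library gave H929 medians of -0.1886 to -0.0782 for cytosolic genes and -0.8582 to -0.6990 for mitochondrial genes.

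The ratio of cytosolic to mitochondrial sums, 8.71 and 7.45 in JJN3 (DMSO, THZ1) and 6.26 and 7.48 under the H929 labels, became 6.77, 5.81, 5.24 and 6.48 without GARS and KARS, and 9.39, 9.02, 8.51 and 8.71 without GARS and IARS2, the genes of each class with the most counts over all 8 libraries. Per kilobase it was 8.67, 6.43 and 7.44 in JJN3 DMSO, H929 DMSO and H929 THZ1.

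Signs reversed only for members not called. VARS2 in JJN3 had -0.065 with total counts and -0.0055 with no filter, and WARS under the H929 labels 0.0136 with DESeq2, 0.0156 with its size factors and 0.0391 with total counts. With 1 library left out, FARS2 in JJN3 ran from -0.1307 to 0.0147, VARS2 in JJN3 from -0.1788 to 0.2162, HARS2 under the H929 labels from -0.1059 to 0.0036 and WARS there from -0.0606 to 0.0478. The cause was not tested. SARS2, at 1 to 35 counts, lost its call in both lines with DESeq2, in JJN3 when any library but the first THZ1 library was left out, and was not tested there with a filter of 1 CPM. Without the first THZ1 library CARS, LARS and NARS passed the fold threshold in JJN3, at -0.51, -0.50 and -0.52. AARS2 under the H929 labels fell short of the fold threshold with DESeq2, its size factors or total counts. SARS2 was the only member with under 92 counts in any library, so depth limits it most.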
